A study of Mus musculus with 6 samples.

Results

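Microvillous cells and ionocytes are rare cells of the sheet that lines the nose and senses odours, the olfactory epithelium, and 8 genes that mark them were followed here: Trpm5, Pou2f3, Chat, Gfi1b and Sh2d7 for microvillous cells, and Foxi1, Ascl3 and Cftr for ionocytes. They were found by symbol among 14939 transcript clusters that the array's annotation gives to 1 gene, and all 8 were measured, each by 1 cluster. Arrays were labelled Emx2 knockout or Emx2 homozygous wildtype, with no treatment, strain or allele design given in the labels. All were olfactory epithelium dissected from embryos at ED18.5, shortly before birth, and each genotype had 3 arrays, each hybridised with equal RNA of 3 pooled animals, so that 9 animals stood behind a genotype. The homeobox gene Emx2 codes for a transcription factor, and the arrays ask how gene expression in the epithelium differs where it is lacking. Nothing in the labels states a Cre driver or a limit to certain cells, and pooling hides the spread between single embryos.

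Most cells of the olfactory epithelium are neurons and their supporting cells, but a few scattered cells carry an apical tuft of microvilli and belong to the same family as taste-like chemosensory and gut tuft cells. These microvillous cells need the transcription factor Pou2f3, use the Trpm5 channel and make acetylcholine, a local signal to their neighbours. Ionocytes are another sparse cell type, known from airway, inner ear and kidney, that depends on Foxi1 and moves chloride and protons.

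None of the 8 genes passed the test for a difference between the genotypes. The log2 differences (arrays labelled knockout minus wildtype) ran from -0.02 for Ascl3 to 0.20 for Cftr, with a median of 0.02, against a median of -0.04 over the 16661 clusters tested. In limma's fit over all clusters 0 of the 8 passed an adjusted p of 0.05, and 0 fell below 0.05 before adjustment either. Of all clusters 2.04% were called, 1.90% lower and 0.144% higher, and 10.1% had an unadjusted p under 0.05 (limma). Both counts of 0 among 8 genes are near what these shares give and say little about the genes. The intervals of the differences say more. Every 95% interval stayed within a 2-fold change in either direction, and 7 of the 8 stayed within 1.5-fold, the exception being Ascl3. The intervals were not adjusted for the number of genes. A tissue sample cannot tell fewer cells of a type from less RNA per cell. The intervals describe array signal, and no source used here gives the background of a single cluster, so whether a gene was expressed at all cannot be read from its signal alone.

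**Figure D1:**
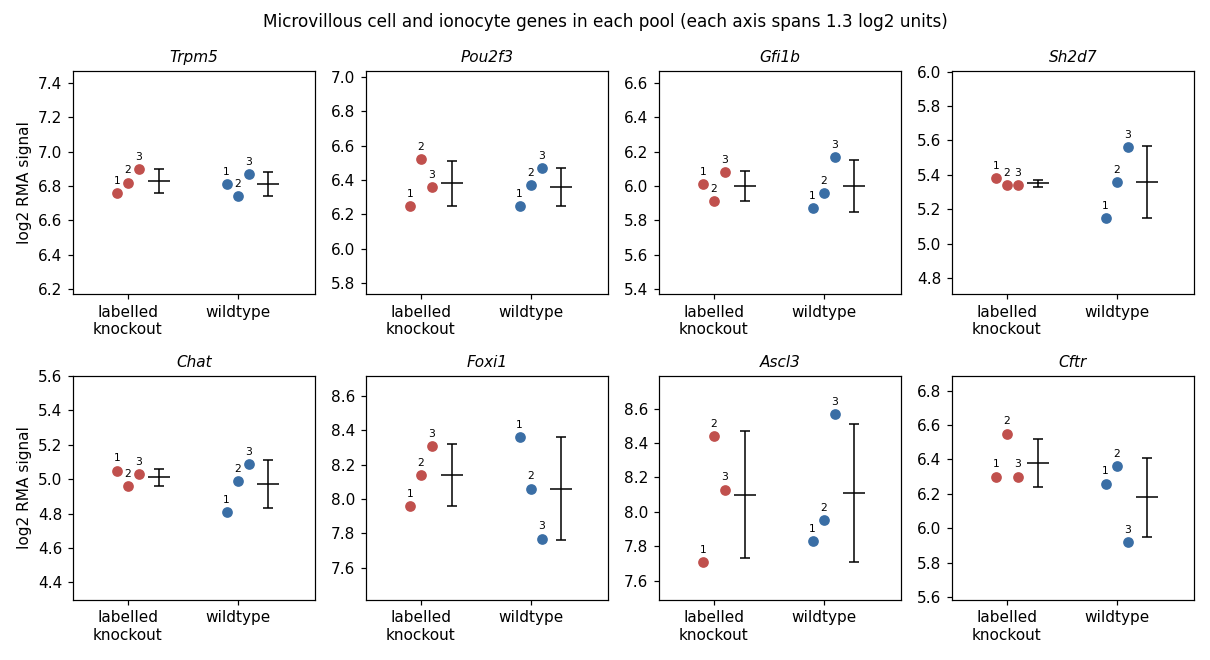
Log2 RMA signal of the 8 genes in each pool (points, numbered by replicate), with the mean and SD of each genotype (n = 3) beside them. The arrays labelled knockout stand left of the wildtype arrays, and each axis spans the same width. In all 8 genes the genotypes overlap. Of all clusters only 15.5% do not overlap, so this says little about the 8.

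Before the genes themselves, 3 facts of the arrays bear on them. The targeted gene, Emx2, was at 8.37 ± 0.03 in the arrays labelled knockout and at 8.44 ± 0.13 in wildtype arrays (SD, n = 3 each; log2 difference -0.07, limma adjusted p = 0.894). Whether its probes lie in the deleted part is not given, so the labels could not be checked by it, and every direction here rests on them. Y-linked Eif2s3y was between 7.78 and 8.89 in knockout replicates 2 and 3 and wildtype replicate 2, and between 3.30 and 3.69 in the other 3 pools, so the pools differed in the sex of their embryos. The median signal of an array ran from 7.64 to 7.73, and precision is limited by having 6 arrays. The labels do not say whether animals of different pools shared a litter.

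Trpm5, the calcium-activated cation channel of taste-like transduction, had log2 signals of 6.76, 6.82 and 6.90 in the arrays labelled knockout, against 6.81, 6.74 and 6.87 in wildtype arrays. The lowest and the highest array both lie close to the others, and the genotypes overlap almost fully. The log2 difference was 0.02 (95% interval -0.18 to 0.22; limma adjusted p = 0.982), which is 1.01-fold with bounds of 0.88 and 1.16. Its spread between pools of a genotype, 0.07 (SD), was the smallest of the 8 and stood at the 11.6th percentile of all clusters.

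Pou2f3, the POU-domain transcription factor on which microvillous cells depend, was at 6.25, 6.52 and 6.36 in the arrays labelled knockout, against 6.25, 6.37 and 6.47 in wildtype arrays. Each genotype held 1 pool at the same low value. The log2 difference of 0.02 had a 95% interval of -0.23 to 0.27 (limma adjusted p = 0.989).

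Gfi1b encodes a transcriptional repressor that is known from red cell and platelet precursors and also found in tuft-like cells. It had signals of 6.01, 5.91 and 6.08 in the arrays labelled knockout, against 5.87, 5.96 and 6.17 in wildtype arrays. The wildtype pools enclosed the others on both sides, and the log2 difference was 0.00 (95% interval -0.25 to 0.25; limma adjusted p = 0.999). Of 11 red cell and megakaryocyte markers 10 were measured, 0 were called and their median log2 difference was -0.05. The list's mean signal per array ran from 6.66 to 6.77 in the arrays labelled knockout and from 6.59 to 6.91 in wildtype arrays, and its part in the Gfi1b value was not tested.

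Sh2d7, an SH2-domain protein found in tuft-like cells, had signals of 5.38, 5.34 and 5.34 in the arrays labelled knockout, against 5.15, 5.36 and 5.56 in wildtype arrays. The SD was 0.02 among the arrays labelled knockout and 0.21 among wildtype arrays, and the difference between these spreads was not tested. The log2 difference was -0.01 (95% interval -0.28 to 0.27; limma adjusted p = 0.996).

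Chat, the enzyme that makes acetylcholine, was at 5.05, 4.96 and 5.03 in the arrays labelled knockout, against 4.81, 4.99 and 5.09 in wildtype arrays. Wildtype replicate 1 was the low array and the others lay together. The log2 difference was 0.05 (95% interval -0.18 to 0.28; limma adjusted p = 0.948). Chat and Sh2d7 had mean signals below the 25th percentile of all cluster means, 5.99, and Gfi1b lay just above it, so these 3 values come from dim clusters, where a change in transcript can be understated. Slc18a3, the vesicular acetylcholine transporter, lies inside the Chat gene in a GRCm38.p6 gene table, and probes of overlapping genes can share signal. Slc18a3 was at 4.05 ± 0.32 in the arrays labelled knockout and 4.52 ± 0.75 in wildtype arrays (SD, n = 3 each), a log2 difference of -0.47 (95% interval -1.34 to 0.40; limma adjusted p = 0.786). It was named after its values were seen, and wildtype replicate 2, the brightest array, carried most of the difference, which was -0.05 without it, -0.29 without knockout replicate 3 and -0.76 without wildtype replicate 1.

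Foxi1, the forkhead transcription factor that directs ionocyte fate, was at 7.96, 8.14 and 8.31 in the arrays labelled knockout, against 8.36, 8.06 and 7.77 in wildtype arrays. The highest and the lowest arrays were both wildtype. The log2 difference was 0.08 (95% interval -0.32 to 0.47; limma adjusted p = 0.951), which is 1.05-fold with bounds of 0.80 and 1.39.

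Ascl3, a basic helix-loop-helix factor of ionocytes and of salivary duct progenitors, had signals of 7.71, 8.44 and 8.13 in the arrays labelled knockout, against 7.83, 7.95 and 8.57 in wildtype arrays. The lowest pool and the highest pool differed by 0.85 log2 units, or 1.81-fold, and they came from different genotypes. With a spread of 0.38 between pools of a genotype (SD), Ascl3 stood at the 93.5th percentile of all clusters, and its interval was the widest of the 8. The log2 difference was -0.02 (95% interval -0.61 to 0.57; limma adjusted p = 0.992), so a change anywhere from 0.66-fold to 1.48-fold lies within the error of these pools.

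Cftr, the chloride channel that is mutated in cystic fibrosis, was at 6.30, 6.55 and 6.30 in the arrays labelled knockout, against 6.26, 6.36 and 5.92 in wildtype arrays. One low wildtype pool, replicate 3, set most of the distance between the means. The log2 difference of 0.20 (95% interval -0.13 to 0.53; limma unadjusted p = 0.187, adjusted p = 0.753) was the largest of the 8. Leaving out that pool gave 0.07, and leaving out wildtype replicate 2 gave 0.30.

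**Figure D2:**
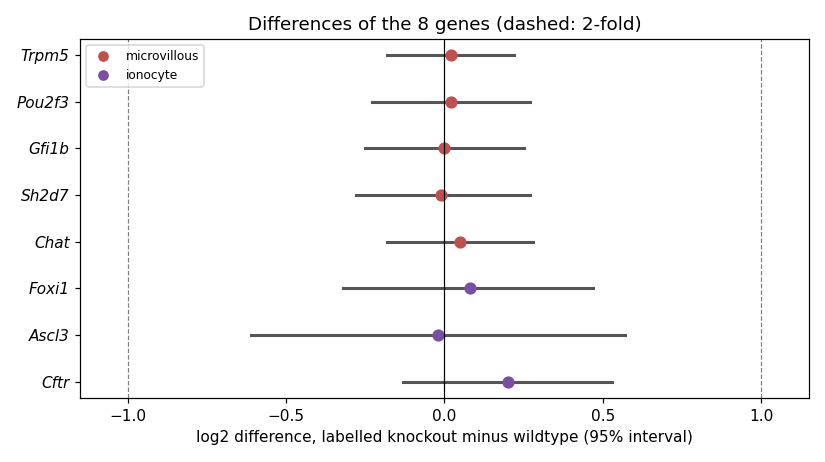
Log2 difference of each gene, arrays labelled knockout minus wildtype (points), with limma's 95% interval (lines) and dashed lines at a 2-fold change. All intervals contain 0, and the interval of Ascl3, from -0.61 to 0.57, is the widest.

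The genotype difference was also read within pools of like Y-linked signal, where 2 arrays labelled knockout stood against 1 wildtype array (high signal) or 1 against 2 (low signal). Ascl3 differed by 0.34 among the pools with high Y-linked signal and by -0.48 among those with low signal. For Foxi1 the values were 0.17 and -0.10, and for Cftr 0.06 and 0.21. The 5 microvillous genes stayed between -0.10 and 0.12 in both sets. These values rest on 3 arrays each and were not tested.

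The 3 ionocyte genes varied more between pools than the 5 microvillous genes. Spreads within genotypes were 0.19 for Cftr, 0.24 for Foxi1 and 0.38 for Ascl3, against 0.07 to 0.15 for the microvillous genes and a median of 0.14 over all clusters (SD, log2 units). That order was read after the values were seen, and the difference between the classes was not tested. It is an order of these 8 genes and not of every gene linked to these cells. Gng13 of the microvillous list below had a spread of 0.36, and Slc12a2 of the ionocyte list 0.08.

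**Figure D3:**
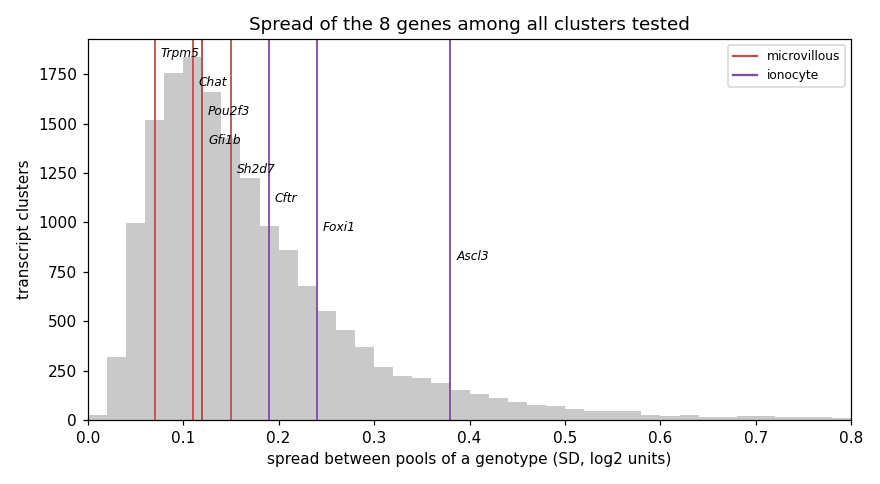
Histogram of the spread between pools of a genotype (SD in log2 units, x axis) over all clusters tested (count, y axis), with a line for each of the 8 genes. The 3 ionocyte lines lie right of the 5 microvillous lines.

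The 3 ionocyte genes did not all vary together. Pearson's r over the 6 arrays, given as a description since all genes share the same arrays, was 0.55 between Foxi1 and Cftr, -0.38 between Foxi1 and Ascl3 and -0.26 between Ascl3 and Cftr. In wildtype replicate 3 Ascl3 was at its highest while Foxi1 and Cftr were at their lowest. Among the microvillous genes, Chat, Sh2d7 and Gfi1b had r between 0.83 and 0.91 with each other, and each was lowest in wildtype replicate 1 and highest in wildtype replicate 3. Clusters at or below the 25th percentile of signal were also brightest in wildtype replicate 3, with a median signal of 4.94, against 4.64 to 4.67 in the arrays labelled knockout and 4.80 and 4.83 in wildtype replicates 1 and 2. As a deviation from each cluster's own mean, the median of these clusters was 0.104 in wildtype replicate 3. It was -0.019 and 0.023 in wildtype replicates 1 and 2, and -0.061 to -0.020 in the arrays labelled knockout. The part of this shift in the pattern of the 3 genes was not tested. Pou2f3 followed Ascl3 (r = 0.93) more than it followed Trpm5 (r = 0.38).

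**Figure D4:**
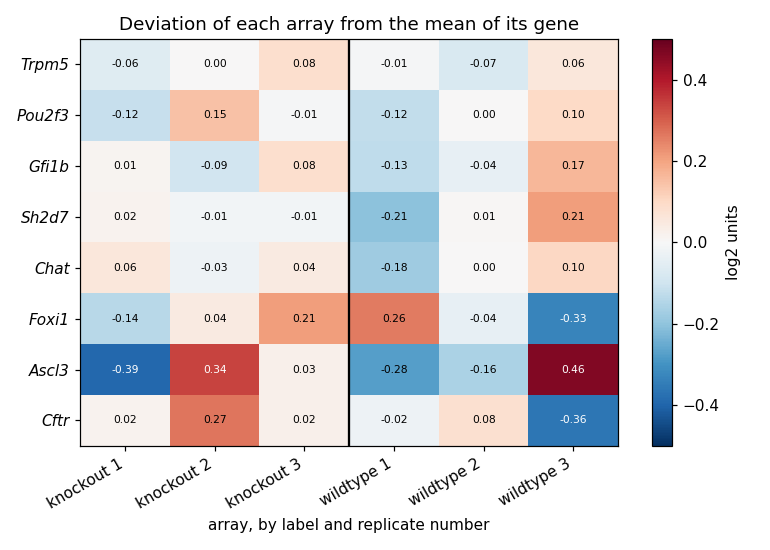
Deviation of each array (columns, arrays labelled knockout left of the line) from the mean of each gene (rows), in log2 units. Ascl3 reaches -0.39 in knockout replicate 1 and 0.46 in wildtype replicate 3, while Trpm5 stays within 0.08 of its mean.

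Likeness to other genes was measured by the same r over 6 arrays, where 58 to 193 single-gene clusters reached 0.9 with a given gene. The 2 clusters nearest to Trpm5 were Bsnd (0.988), a subunit of kidney and inner-ear chloride channels, and Fcgr4 (0.979). Nearest to Pou2f3 were Lemd2 (0.995) and Mybph (0.985), to Chat Pate4 (0.989) and Hes7 (0.986), and to Gfi1b Sptssb and F830045P16Rik (both 0.989). Sh2d7 was nearest to Cxcl1 (0.996) and P2ry4 (0.991), Foxi1 to Mbd6 (0.992) and Aqp4 (0.991), Ascl3 to Bik (0.988) and Eno3 (0.986), and Cftr to Ago1 (0.993) and Gxylt2 (0.989). No member was among the 2 nearest clusters of another member.

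Sequence before the gene start was taken from RefSeq promoters of GRCm38.p6, in which 7 of the 8 genes matched by symbol. Those of Ascl3, the gene with the widest spread between pools, and Trpm5, the gene with the narrowest, are shown as the 250 bases before the start. The Ascl3 stretch is chr7:109731733-109731982 and the Trpm5 stretch chr7:143094643-143094892, both on the minus strand, written 5′ to 3′, with capitals where AAATCA or its reverse complement TGATTT occurs, the core letters bound by Gfi repressors.
Ascl3: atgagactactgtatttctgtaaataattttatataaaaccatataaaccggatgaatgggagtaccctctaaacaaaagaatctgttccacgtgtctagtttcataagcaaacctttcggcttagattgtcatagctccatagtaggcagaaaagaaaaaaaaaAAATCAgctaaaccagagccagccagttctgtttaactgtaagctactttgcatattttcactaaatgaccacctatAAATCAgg
Trpm5: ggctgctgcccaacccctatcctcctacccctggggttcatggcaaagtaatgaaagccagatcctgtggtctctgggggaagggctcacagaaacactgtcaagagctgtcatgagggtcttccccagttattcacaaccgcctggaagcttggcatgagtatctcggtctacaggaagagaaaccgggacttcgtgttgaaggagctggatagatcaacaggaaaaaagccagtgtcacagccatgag
Those letters, searched on both strands, occurred in the promoters of Ascl3, Chat and Gfi1b, 3 of 7, against 12.4% of 32851 promoters of the same length, and they began 85 and 8 bases before the start of Ascl3. Its 250 bases held 34.8% G and C, against 52.8% in Trpm5. The POU octamer ATGCAAAT was in 0 of the 7 and in 1.60% of all promoters, the forkhead letters GTAAACA were in 0 and in 3.17%, and the E-box CAGCTG was in 1, that of Chat, and in 13.0%. A match describes letters in this window and is not a binding site.

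Genes linked to these cells, some of them also made by other cells, gave 0 calls. Over 5 lists of pathway genes 61 of 77 listed genes were measured, and 0 were called lower and 0 higher by limma. Of all clusters 2.04% were called, so a count of 0 among 61 is near that background and says little about these genes. Before adjustment 8 had a p under 0.05 (limma), 3 lower and 5 higher, which is 13.1% against 10.1% of all clusters.

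Of 22 further genes of microvillous and tuft-like cells 14 were measured, 8 with a negative and 6 with a positive difference and a median of -0.01. Of the 14, 5 were dim, below the 25th percentile of cluster means, where a change can be understated. Gng13, a G-protein gamma subunit that olfactory neurons also use, was at 8.37, 9.14 and 8.76 in the arrays labelled knockout, against 9.38, 9.01 and 9.66 in wildtype arrays. It had the smallest p of the list (log2 difference -0.59, SE 0.23; limma adjusted p = 0.447), and the genotypes overlapped. Ltc4s, the leukotriene C4 synthase, was at -0.22 (limma adjusted p = 0.696), and at -0.11 without wildtype replicate 3. Itpr3, the calcium-release channel that marks microvillous cells, was named after its values were seen. It had signals of 7.98, 7.79 and 7.78 in the arrays labelled knockout, against 7.76, 7.64 and 7.69 in wildtype arrays. All 3 arrays labelled knockout lay above the wildtype arrays, as in 3.51% of all clusters, and 15.5% did not overlap in either direction. Of the 14 genes in the list it was the only 1 to do so. The log2 difference of 0.15 (95% interval -0.06 to 0.37) had a limma adjusted p = 0.700 and was 0.09 without knockout replicate 1.

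Of 11 taste receptor genes 10 were measured and 8 of them were dim, below the 25th percentile of cluster means. Tas2r138, a bitter receptor, was at 6.22 ± 0.29 in the arrays labelled knockout and 6.80 ± 0.20 in wildtype arrays (SD, n = 3 each), a log2 difference of -0.58 (limma adjusted p = 0.248). Tas2r135 was at 0.31 (limma adjusted p = 0.488), and the other 8 lay between -0.12 and 0.10.

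Acetylcholine synthesis by Chat is served by other genes, and of 15 genes of acetylcholine handling and reception 13 were measured. Of these, 6 were negative and 7 positive, with a median of 0.03, and 6 of the 13 were dim. With an unadjusted p under 0.05 (limma) there were 0, against 10.1% of all clusters, so that count says little about 13 genes. Chrnb2, a nicotinic receptor subunit, was at -0.21 and Slc5a7, the choline transporter, at 0.13 (limma adjusted p = 0.673 and 0.677), and Chrnb2 was at -0.10 without wildtype replicate 2. Of 6 genes of neuromodulation by microvillous cells, all measured, 3 were negative and 3 positive. Nt5e, which makes adenosine from AMP, was at 0.32 and the neuropeptide Npy at -0.29 (limma adjusted p = 0.557 and 0.687), and Npy was at -0.14 without knockout replicate 2 and -0.44 without knockout replicate 1.

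Among 23 ionocyte and proton pump genes 18 were measured, 14 positive and 4 negative, with a median log2 difference of 0.08. All 3 arrays labelled knockout lay above the wildtype arrays for 4 of them, against 3.51% of all clusters, and below them for 1, against 12.0%. None passed the threshold. Atp6v0d2, a subunit of the vacuolar proton pump that osteoclasts also make, was at 7.04, 7.44 and 7.13 in the arrays labelled knockout, against 6.94, 6.67 and 6.21 in wildtype arrays (log2 difference 0.60, SE 0.20; limma adjusted p = 0.337). Slc26a4, the anion exchanger pendrin, was at 4.83 ± 0.18 in the arrays labelled knockout and 5.20 ± 0.17 in wildtype arrays (SD, n = 3 each; log2 difference -0.37, limma adjusted p = 0.370). Slc12a2, the sodium-potassium-chloride cotransporter, at 0.24, Moxd1 at 0.24 and Hepacam2 at 0.25 were named after their values were seen (limma adjusted p = 0.404, 0.448 and 0.457). Atp6v1g3, a pump subunit of specialised acid-secreting cells, was named likewise, with 5.72, 7.18 and 6.61 in the arrays labelled knockout, against 6.51, 7.39 and 7.76 in wildtype arrays. Its log2 difference of -0.72 had a 95% interval of -1.75 to 0.32 (limma adjusted p = 0.707). The difference was -0.32 without knockout replicate 1 and -0.45 without wildtype replicate 3. Like Ascl3, Atp6v1g3 was lowest in knockout replicate 1 and highest in wildtype replicate 3 (r = 0.78 over 6 arrays). Foxi1 did not share that order, with an r of -0.36 to Atp6v1g3.

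Markers of other cell types were read in the same arrays. Of 12 markers of mature olfactory neurons 11 were measured, 10 negative and 1 positive, with a median of -0.83. Of the 11, 4 were called lower by limma, against 1.90% of all clusters, and 9 had an unadjusted p under 0.05, against 10.1%. The mean of the list ran from 8.64 to 8.94 in the arrays labelled knockout and from 9.36 to 9.80 in wildtype arrays. The count of 4 was 1 without wildtype replicate 1, knockout replicate 1 or knockout replicate 3, 2 without wildtype replicate 3 and 2 when unannotated probe sets were tested as well. It was 0 with the replicate number as a block, and whether the numbers pair the samples is not known. Bone, cartilage and mesenchyme markers had a median of 0.32 over 10 genes, all positive and 0 called (4 with an unadjusted p under 0.05, limma), with a list mean of 9.63 to 9.76 in the arrays labelled knockout and 9.19 to 9.43 in wildtype arrays. Sustentacular markers had a median of 0.19 over 8 genes, with 0 called (2 with an unadjusted p under 0.05, limma) and a mean of 10.08 to 10.31 in the arrays labelled knockout and 9.92 to 10.01 in wildtype arrays. The mean of the 8 microvillous and ionocyte genes ran from 6.43 to 6.59 in the arrays labelled knockout and from 6.42 to 6.55 in wildtype arrays. The part of these other cells in the values of the 8 genes was not tested.

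**Figure D5:**
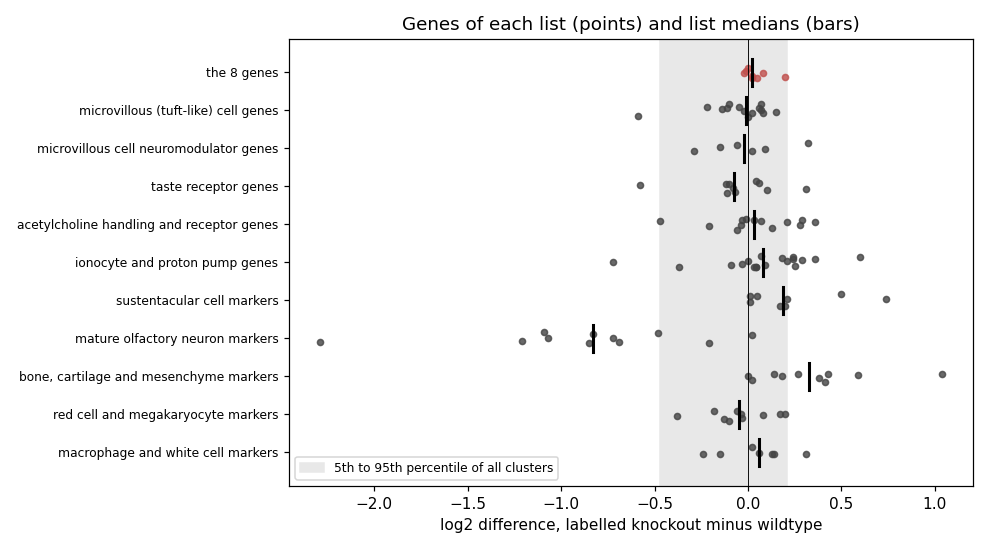
Log2 differences, arrays labelled knockout minus wildtype, of the 8 genes (top row) and of the genes in each list (points), with list medians (bars) and the 5th to 95th percentile of all clusters, -0.47 to 0.21, in grey. The 8 genes lie between -0.02 and 0.20, inside that band.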

How the data were processed

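Values were deposited by the authors on a log2 scale, 1 per probe set and array, and the submitters' processing notes name RMA (background correction, quantile normalization, summarisation) and Affymetrix Expression Console. No source used here gives versions, annotation level or genome build. Equalising the arrays' distributions can shift values where many clusters change one way, and a value over all exons hides a change limited to some.

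Of 23238 probe sets, 16661 in the numbering range of the platform annotation were tested: 14939 with 1 gene, 989 with several and 733 with none. The other 6577 were tested as an alternative. All 6 arrays entered a two-sided test with limma 3.58.1 (lmFit, eBayes; R 4.3.3), and p-values were adjusted by Benjamini-Hochberg over all 16661, at a threshold of 0.05. P-values set the difference between genotypes against the spread between pools, and not against the spread between single animals. The 8 genes, the lists and the tests were chosen with earlier results of these data known. Named besides the 8 are, per list, up to 4 called genes or the 2 with the smallest p, plus those marked as named later, and the 2 clusters nearest to each gene by correlation. The fit was tested on simulated data with 16661 clusters, of which 200 were changed, as many up as down. Noise was normal, independent between clusters and as wide as each cluster's observed spread. The fit found 38% of changes of 1.5-fold, 78% at 2-fold and 98% at 4-fold, with 8 false calls. Noise shared across the clusters of an array was not simulated, so the rates may not carry over to these arrays. Arrays correlated at 0.975 to 0.991 in pairs and shared at most 9 identical values. Deviations of same-numbered arrays correlated at 0.007, 0.049 and -0.167, and those of differently numbered arrays at -0.214 to 0.216. The values thus show no pairing by number, but with 3 arrays per genotype they cannot exclude one. Plots were drawn with matplotlib 3.10.9.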

Additional observations from a re-analysis of the deposited data

How the results depend on the processing

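Under 15 alternatives 0 of the 8 genes and 0 of the 61 pathway genes were called in either direction, though only 6 and 38 of them were tested where clusters below the 25th percentile were left out, and the 118 values of the 8 genes ran from -0.19 to 0.31 (lowest limma adjusted p = 0.389, Chat after a second quantile normalization). Being near 0, several changed sign. Pou2f3 was at -0.01 with Y-linked signal as a covariate. Ascl3 was at 0.02 with median-centred arrays, 0.03 after the second quantile normalization and 0.01 with array weights, and Sh2d7 at 0.03, 0.14 and 0.02 in that order. With 1 array left out Trpm5 ran from -0.02 to 0.05, Pou2f3 from -0.05 to 0.08, Chat from -0.03 to 0.11, Ascl3 from -0.19 to 0.21, Foxi1 from -0.07 to 0.22, Gfi1b from -0.06 to 0.08, Sh2d7 from -0.11 to 0.10 and Emx2 from -0.11 to 0.00. Clusters called lower numbered 316, but 109 above the 25th percentile of signal, 144 with all probe sets, 168 with the replicate block, 186 with the Y-linked covariate, and 145 to 224 with 1 array left out. Clusters called higher numbered 24, and 13 to 23 with 1 array left out. With the replicate block 0 of the 4 mature neuron markers passed. Averaging several clusters of a gene was not run, since each gene of the lists had 1. Dim signal limits Chat, Sh2d7, Gfi1b, 8 of the 10 taste receptors measured, Slc18a3, Slc5a7, Slc26a4, Gp9 and Mpo. It also limits 5 of the 14 further microvillous genes, and 6 of the 13 acetylcholine genes with Slc18a3 and Slc5a7 among them.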

Other observations

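The markers of other cell types gave calls in 1 list. The mature neuron markers that passed were S100a5 at -2.29, Ano2 at -1.21, Rtp2 at -1.09 and Umodl1 at -1.07 (limma adjusted p = 0.00983, 0.0145, 0.0249 and 0.0169). The other 7 measured did not pass and lay between -0.85 and 0.02. Omp, named after its values were seen, was the lowest of these (limma adjusted p = 0.120), and it passed without wildtype replicate 2 (adjusted p = 0.0307). The list's count fell to 1 without wildtype replicate 1, knockout replicate 1 or knockout replicate 3 and to 2 without wildtype replicate 3. With the replicate block it was 0. In the lists that follow no gene passed, and the 2 genes with the smallest p are named. Bone markers Sp7 and Ibsp were at 0.59 and 1.04 (limma adjusted p = 0.125 and 0.130), and Ibsp passed without wildtype replicate 2 (adjusted p = 0.0299). The sustentacular markers Muc2 and Cyp1a2 were at 0.50 and 0.74 (limma adjusted p = 0.237 and 0.363), and Muc2 passed without wildtype replicate 1 (adjusted p = 0.0467).

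Muscle markers Ckm and Tnni2 were at 0.53 and 0.82 (limma adjusted p = 0.630 and 0.650), in a list of 7 measured genes with a median of 0.46. Leaving out knockout replicate 2 gave 0.29 for Ckm, leaving out knockout replicate 1 gave 0.82, and Tnni2 was at 0.39, 1.24 and 0.54 without knockout replicate 2, knockout replicate 1 and wildtype replicate 1. The platelet genes Pf4 and Gp9 were at -0.38 and 0.17 (limma adjusted p = 0.528 and 0.662), with Pf4 at -0.19 without wildtype replicate 3 and Gp9 at 0.11 without knockout replicate 1. Among macrophage and white cell markers, with a median of 0.06 over 7 genes, Cd68 was at 0.31 and Mpo at -0.15 (limma adjusted p = 0.599 and 0.668), and Cd68 was at 0.47 without knockout replicate 1. Gland markers Krt19 and Bpifb1 were at -0.22 and -0.43 (limma adjusted p = 0.574 and 0.676), with a median of -0.10 over 4 genes. Krt19 was at -0.14 without knockout replicate 3, and Bpifb1 at -0.17 without wildtype replicate 1 and -0.65 without wildtype replicate 2. Of the motile cilia genes, with a median of -0.05 over 6, Dnah5 was at 0.30 and Rsph1 at -0.23 (limma adjusted p = 0.496 and 0.810). Dnah5 was at 0.19 without knockout replicate 1, and Rsph1 at -0.42, -0.09 and -0.11 without wildtype replicate 1, wildtype replicate 3 and knockout replicate 3.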
